A study of Mus musculus with 38 samples.

Results

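Replication and mitosis genes are read here as a module of 48 mouse genes that copy the genome and divide the cell, chosen by name from a fixed list. All 48 were found among the 25746 genes of the RNA tables, and all 48 were among the 15659 genes with enough signal to be tested (at least 1 TPM in at least 2 libraries). TPM is a length-corrected transcript abundance scaled to a fixed total within a library, so levels of different genes can be compared on this scale. The columns as deposited were not equal in sum (918008 to 969385). The RNA came from Tcf21 lineage cells, fluorescence-sorted from mouse adipose tissue at 5000 cells a library. Tcf21 is a transcription factor of mesenchymal progenitors, and the series concerns its part in the development of visceral fat.

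The 29 RNA libraries fall into 8 groups by their titles. Wild-type (WT) cells were taken at postnatal day 12 (P12, 2 libraries), at 3 weeks of age (3W, 7 libraries) and at 6 months (6M, 2 libraries), all on regular diet. Further WT cells came from mice fed a high-fat diet (HFD) from 6 weeks of age, for 1 week (1W HFD, 4 libraries) or 12 weeks (12W HFD, 5 libraries). Knockout (KO) cells were taken at 3W (5 libraries), 1W HFD (2 libraries) and 12W HFD (2 libraries). All labels, WT ones included, give the same tamoxifen treatment for a tamoxifen-activated Cre, MerCreMer: 75 mg per kg of body weight per day by gavage for adults, pregnant dams among them, or 100 µg per day injected into the stomach of newborns. The labels do not say which dosing each mouse had, which promoter drove the Cre, or which allele the KO cells lacked. Whether replicates are separate animals is not stated, so p-values measure only the spread between libraries, which may be technical.

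A cell that divides first licenses its replication origins by loading the MCM helicase, then raises its nucleotide supply and copies its DNA, then builds a spindle and separates the chromosomes under cyclin B with Cdk1 and the anaphase-promoting complex (APC/C). Genes of the first steps are classically induced by E2F factors at the start of S phase, and genes of mitosis by the MuvB, B-Myb and FoxM1 proteins, which act through a CHR element (cell cycle genes homology region) often set beside CCAAT boxes. In a tissue of slowly dividing progenitors the summed level of such RNAs is commonly read as following the share of cells in cycle. In bulk libraries fewer cycling cells and less RNA per cycling cell cannot be told apart.

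The promoters of these genes differ by role, and 6 are shown because they carry the letters in which mitosis and replication genes differ most. The stretches run from 170 bases before the RefSeq start site to the 30 bases that begin with it, 5′ to 3′ on the gene's strand, on build GRCm38.p6 (mm10). Capitals mark, on either strand, TTTGAA for the CHR element, the CCAAT box and the E2F letters spelled out further on.
Ccnb2, cyclin B2, chr9:70421525-70421724, minus strand: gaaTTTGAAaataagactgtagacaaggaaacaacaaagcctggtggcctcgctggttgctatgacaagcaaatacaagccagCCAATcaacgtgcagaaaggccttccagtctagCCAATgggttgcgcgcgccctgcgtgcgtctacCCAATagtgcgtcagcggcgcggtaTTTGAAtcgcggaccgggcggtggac
Cdc20, activator of the APC/C, chr4:118437314-118437513, minus strand: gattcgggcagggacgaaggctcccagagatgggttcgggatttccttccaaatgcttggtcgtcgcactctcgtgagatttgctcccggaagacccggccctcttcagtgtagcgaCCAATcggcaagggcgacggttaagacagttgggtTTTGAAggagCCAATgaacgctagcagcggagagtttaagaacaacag
Ube2c, ubiquitin-conjugating enzyme of the APC/C, chr2:164769759-164769958, plus strand: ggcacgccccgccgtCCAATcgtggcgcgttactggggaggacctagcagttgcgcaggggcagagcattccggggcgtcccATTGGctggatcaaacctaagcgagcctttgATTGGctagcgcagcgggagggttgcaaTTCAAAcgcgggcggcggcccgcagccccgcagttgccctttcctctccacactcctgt
Cdk1, the kinase that starts mitosis, chr10:69352883-69353082, minus strand: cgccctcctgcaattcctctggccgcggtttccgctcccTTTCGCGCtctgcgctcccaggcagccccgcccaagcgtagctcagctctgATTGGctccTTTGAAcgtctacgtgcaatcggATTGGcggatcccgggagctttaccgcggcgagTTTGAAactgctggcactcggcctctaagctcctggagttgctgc
Mcm5, subunit of the MCM helicase, chr8:75109339-75109538, plus strand: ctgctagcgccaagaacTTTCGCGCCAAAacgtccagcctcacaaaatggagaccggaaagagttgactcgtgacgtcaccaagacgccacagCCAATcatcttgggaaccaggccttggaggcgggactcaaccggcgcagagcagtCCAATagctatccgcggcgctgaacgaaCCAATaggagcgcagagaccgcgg
Mcm6, subunit of the MCM helicase, chr1:128359676-128359875, minus strand: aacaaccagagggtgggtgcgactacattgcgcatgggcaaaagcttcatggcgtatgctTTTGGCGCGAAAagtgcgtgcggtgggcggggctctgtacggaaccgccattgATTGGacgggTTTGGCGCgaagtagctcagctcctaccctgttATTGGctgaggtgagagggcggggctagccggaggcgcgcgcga

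Letters were counted over the whole RefSeq window of 300 bases, 250 before to 50 from the start site, in 41 windows of 39 members. The other members, Aurkb, Ccna2, Ccne2, Foxm1, Gins2, Kif20a, Mcm4, Stmn1 and Tpx2, are named only. Mitosis genes here are the kinase and checkpoint, chromosome, and spindle roles, and replication genes the licensing and nucleotide roles. Cyclins, Cdk1, E2f1 and Foxm1 are in neither set, so Ccnb2 and Cdk1 above are counted in neither. The CHR letters TTTGAA stood on either strand in 17 of 22 windows of mitosis genes (77.3%) and in 1 of 14 windows of replication genes (7.14%), against 17.9% of all 32851 windows in the table. E2F letters (TTTCCCGC, TTTGGCGC, TTCCCGCC, TTTCGCGC or TTTGCCGC, either strand) stood in 8 of 14 replication windows (57.1%) and in 0 of 22 mitosis windows, against 3.89% of all windows. CCAAT was common to both, in 31 of the 41 windows (75.6%) against 37.4% of all. Of the windows of tested genes outside the module, 12.4% held CHR letters, 6.28% E2F letters and 37.1% CCAAT. The E2F patterns overlap each other, and in the Mcm5 and Mcm6 stretches above each long run of capitals holds 2 overlapping matches on opposite strands. Cdk1 was the member window with all 3 kinds of letters. A match describes the sequence and is not a measured binding site.

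Chromatin at these promoters was open in every state profiled. ATAC-seq, which cuts accessible DNA with Tn5 transposase, had been run on 9 libraries of 5000 sorted cells: KO 3W (2 libraries), WT 3W (3), WT 1W HFD (2) and WT 12W HFD (2). In each of the 9 deposited peak lists, called library by library, all 39 members with a start site in the table had a peak within 500 bases of it. Of 11311 tested genes with a start site, 87.3% to 90.6% had one. The lists held 55990 to 93314 peaks, and the member count was 39 in the shortest list (WT 3W replicate 2) as in the longest.

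Facts of the libraries that bear on what follows are few. The deposited TPM columns summed to 918008 to 969385, and 10894 to 12825 genes reached 1 TPM in a library; read depth is unknown, and a value listed as 0 does not show that a transcript was absent. The 12 markers of Tcf21 lineage and fibroblast-like stroma were all at 1 TPM or more in all 29 libraries. Tcf21 itself lay at 37.6 to 109 TPM (median 47.6) in WT 3W and at 20.0 to 60.9 TPM in KO 3W, which overlap. It lay at 11.3 to 47.4 TPM in WT 1W HFD against 8.10 and 16.4 in KO 1W HFD, and at 5.86 to 13.5 TPM in WT 12W HFD against 1.64 and 5.67 in KO 12W HFD, without overlap only in the last. For 22 of 38 samples the genotype entry goes against the title, and groups here rest on the titles.

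The module's level differed more between libraries of one group than between most groups. The level is the mean of log2(TPM + 1) over the 48 members. It was 3.88 and 4.32 at P12, and 2.35 to 4.35 (median 2.89) over the 7 WT 3W libraries. KO 3W libraries lay at 5.05, 2.40, 3.08, 3.07 and 3.85, WT 1W HFD at 2.73, 3.27, 3.58 and 2.05, and KO 1W HFD at 3.12 and 4.89. WT 12W HFD lay at 3.47, 2.81, 3.10, 3.25 and 2.74, KO 12W HFD at 2.52 and 3.39, and WT 6M at 2.56 and 2.51. KO 3W replicate 1 and KO 1W HFD replicate 2 were the highest of all 29 libraries, and each stood well above its own group. The lowest was WT 1W HFD replicate 4. The summed TPM of the 48 genes ran from 337 in that library to 2507 in KO 3W replicate 1.

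**Figure D1:**
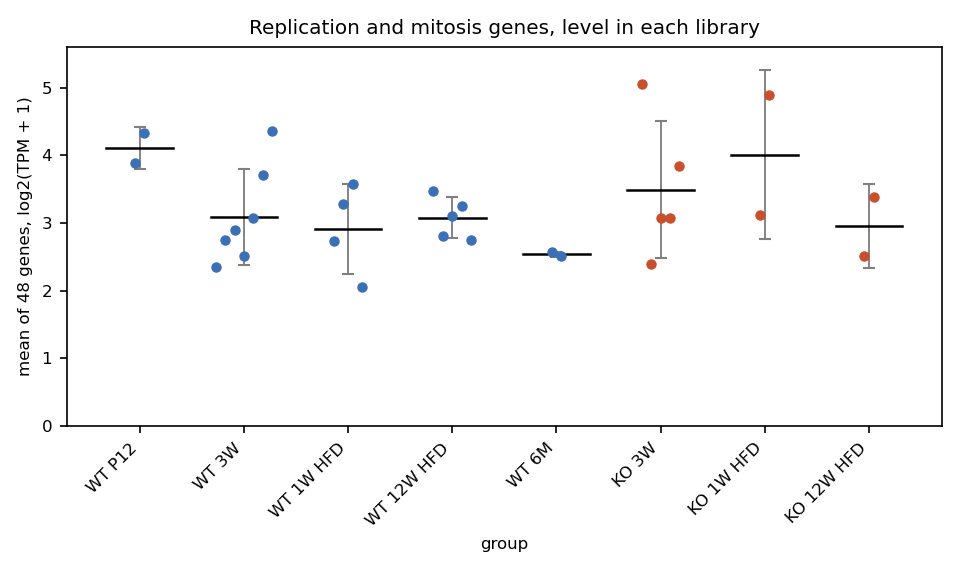
Mean log2(TPM + 1) of the 48 genes, one point a library (blue WT, red KO), by group; the black line is the group mean and the grey bar its SD. The highest points are KO 3W replicate 1 (5.05) and KO 1W HFD replicate 2 (4.89), and both P12 libraries lie at 3.88 or above.

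Those libraries also held most of the peaks of single genes. Of the 48 members 26 had their highest value in KO 3W replicate 1 and 11 in KO 1W HFD replicate 2, while 9 peaked in a P12 library and 2 in WT 3W. In KO 3W replicate 1, 45 of 48 members lay above every other KO 3W library, and their median excess over the median of those libraries was 2.02 log2 units. It was 2.49 for the mitosis genes and 1.71 for the replication genes, with Cdca3 the highest (3.08) and Orc1 the lowest (-0.27). In KO 1W HFD replicate 2 all 48 lay above the other KO library of that group, by a median of 1.68.

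Some marker lists stood apart in these libraries and others did not. In KO 3W replicate 1 the 15 macrophage markers summed to 351 TPM against 63.0 to 170 TPM in the other 3W libraries, with 10 of 15 above all of them and Cx3cr1 at 0. The 8 pericyte and smooth muscle markers summed to 32.9 TPM against 47.6 to 578 TPM, with 5 of 8 below all of them and Higd1b at 0. The 15 dissociation and immediate early genes summed to 6065 TPM there against 16270 to 32826 TPM, with 9 of 15 below all of them. In KO 1W HFD replicate 2 the macrophage markers summed to 895 TPM against 319 to 571 TPM in the other 1W HFD libraries, with 10 of 15 above all of them and Itgam at 0. The 12 endothelial markers summed to 133 TPM against 170.1 to 506 TPM there, with 6 of 12 below all the others, and the pericyte markers to 51.8 TPM against 64.0 to 167 TPM, with 3 of 8 below, none of either list at 0. In the 12W HFD and 6M libraries, which differ from these in age or diet, the macrophage markers summed to 1383 to 5530 TPM. The module lay at 2.51 to 3.47 there. WT 3W replicate 7, with a module level of 4.35, had the lowest macrophage sum of all 29 libraries (63.0 TPM). In KO 3W replicate 1 the endothelial markers (111 TPM) lay inside the range of the other 3W libraries (47.2 to 134 TPM). The erythroid, lymphocyte, mesothelial, Schwann and stromal sums of KO 3W replicate 1 and KO 1W HFD replicate 2 also lay inside such ranges. The part of these markers in the module's level was not tested in any group.

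**Figure D2:**
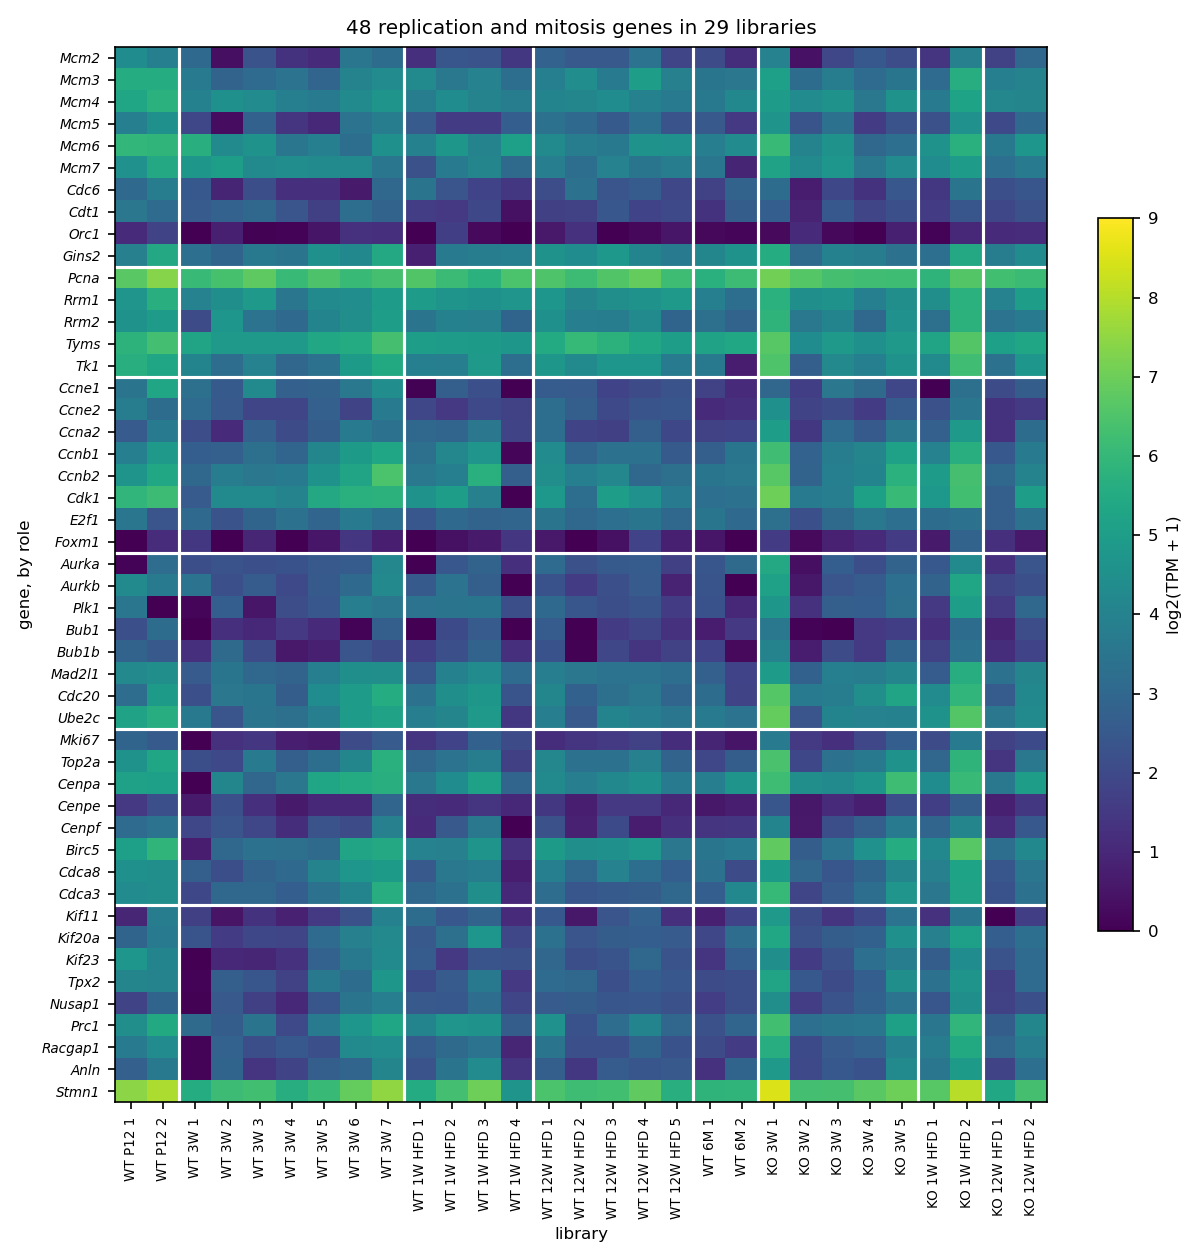
log2(TPM + 1) of each of the 48 genes (rows, by role from replication licensing at the top to cytokinesis at the bottom) in each of the 29 libraries (columns, white lines between groups and roles). The bright columns are KO 3W replicate 1, KO 1W HFD replicate 2 and the P12 libraries; Stmn1 and Pcna are bright in all columns and Orc1 and Foxm1 dark in nearly all.

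Levels within the module spanned a wide range. Stmn1, which codes for the microtubule-destabilising protein stathmin, and Pcna, the sliding clamp of the replication fork, had the highest group medians (202.8 and 134 TPM, both at P12). Orc1, a subunit of the origin recognition complex, and Foxm1, a transcription factor of mitotic genes, had the lowest, with a highest group median of 1.86 TPM (P12) and 3.41 TPM (KO 1W HFD). Of the 48 members 36 were above 0 in all 29 libraries. Bub1, a spindle checkpoint kinase, Orc1 and Foxm1 were each listed at 0 in 5 libraries.

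Mitosis genes varied more than replication genes. The 25 mitosis genes (kinases and checkpoint, chromosome proteins, spindle and cytokinesis) had a mean log2 level of 1.54 to 5.27 over the libraries, and the 15 replication genes (licensing and nucleotide supply) one of 2.96 to 4.99. Within the WT 3W group the median SD of a gene was 1.14 log2 units for mitosis genes and 0.57 for replication genes, against 0.53 over all tested genes. In WT 1W HFD it was 1.02 and 0.59 against 0.39, and in KO 3W 1.31 and 0.92 against 0.46. In WT 12W HFD it was 0.53 and 0.44 against 0.38. The sets lay at unlike levels (median over libraries 2.91 for mitosis and 3.55 for replication genes) and were not matched for level. The part of low values in these spreads was not tested.

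**Figure D3:**
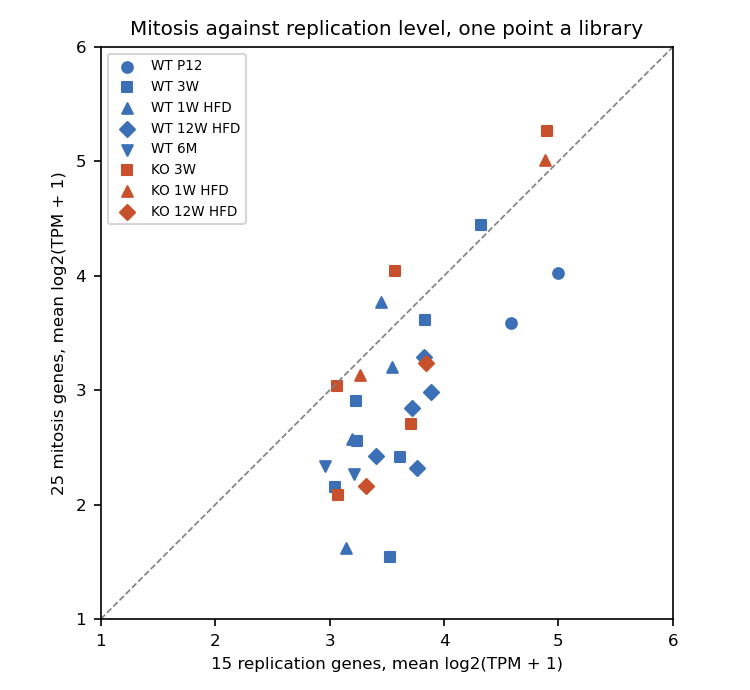
Mean log2(TPM + 1) of the 25 mitosis genes against that of the 15 replication genes, one point a library (shapes give the age and diet, blue WT, red KO); the dashed line marks equal levels. Mitosis minus replication runs from -1.98 (WT 3W replicate 1) to 0.47 (KO 3W replicate 5), and both P12 libraries sit near -1.

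The balance of the sets differed between libraries. Mitosis minus replication was -1.0 and -0.97 at P12, where both sets were high and the module level was 3.88 and 4.32. At a like level of 4.35 it was 0.13 in WT 3W replicate 7. It was 0.37 in KO 3W replicate 1 (level 5.05) and 0.13 in KO 1W HFD replicate 2 (level 4.89), where both sets were also high. It was lowest in WT 3W replicate 1 (-1.98), WT 1W HFD replicate 4 (-1.53) and WT 12W HFD replicate 2 (-1.44). WT 3W replicate 1 listed Cenpa, the centromeric histone, Kif23, a midzone motor, Bub1 and Orc1 at 0 and Mki67 at 0.02 TPM while Mcm6 stood at 48.4 TPM, the highest of the 7 WT 3W libraries. In that library 10894 genes reached 1 TPM, the fewest of all 29 libraries. The part of this low detection in its values was not tested. WT 1W HFD replicate 4 listed Cdk1, Aurkb, Cenpf, Bub1, Ccne1 and Orc1 at 0. Pcna stood at 65.6 and 86.7 TPM in these libraries.

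Members followed the module to different degrees. Pearson's r with the mean of the other 47 members over 29 libraries was 0.95 for Top2a, 0.94 for Stmn1, 0.91 for Prc1 and 0.90 for Ccnb2, and 0.45 for Mcm7, 0.41 for Pcna and Mcm6, 0.39 for Orc1 and 0.31 for E2f1. These are descriptions over libraries that share groups and unknown depths. Outside the module the genes most like its mean over the same libraries were Ckap2l (r = 0.92), Nuf2 (0.90), Hmmr (0.90), Pclaf (0.89), Cks2 (0.89), Kif22 (0.89), Pimreg (0.88), Ckap2 (0.87), Melk (0.87) and Tacc3 (0.87). All but Pclaf stood on the lists of further replication and mitosis genes.

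From P12 to 3W in WT cells 2 subunits of the replicative helicase fell. Mcm3, a subunit of the MCM helicase that unwinds DNA (mm10 chromosome 1, 20802968 to 20820312), stood at 46.1 and 46.4 TPM at P12 and at 6.32 to 19.5 TPM (median 9.69) at 3W. Mcm4, another subunit (chromosome 16, 15623897 to 15637400), stood at 38.0 and 52.6 TPM against 11.7 to 24.4 TPM (median 19.0). In both genes the groups did not overlap. Mcm3 fell by 2.07 ± 0.50 on the log2 scale (limma adjusted p = 0.0292) and Mcm4 by 1.32 ± 0.35 (limma adjusted p = 0.0441), where log2 changes are of TPM + 1 and errors are SE. They were 2 of 48 members called lower at an adjusted p under 0.05, against 1.00% of all tested genes.

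Other members pointed the same way without passing. Of the 48, 44 had a negative log2 change and the median was -0.97, against -0.04 over all tested genes, of which 45.5% were positive. All 10 licensing genes, all 5 nucleotide and clamp genes and all 9 spindle and cytokinesis genes were negative. In 8 members (Mcm2, Mcm3, Mcm4, Mcm5, Mcm6, Cdc6, Cdk1 and Ube2c) all 3W libraries lay below both P12 libraries, 16.7% of the module against 5.17% of tested genes. The remaining helicase subunit, Mcm7, overlapped, with 22.7 and 42.2 TPM at P12 and 10.6 to 32.2 at 3W. Mcm5 stood at 13.7 and 21.8 TPM at P12 against 0.22 to 12.8 TPM (median 2.80) at 3W, a change of -2.10 ± 0.76 (limma adjusted p = 0.182).

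Mitosis genes spread widely at 3W. Top2a, the topoisomerase that untangles replicated chromosomes, stood at 23.8 and 38.4 TPM at P12 and at 2.93 to 51.9 TPM (median 8.48) at 3W, where WT 3W replicate 7 lay above both P12 libraries. Its change was -1.59 ± 0.88 (limma adjusted p = 0.425). Mki67, which codes for the Ki-67 protein of mitotic chromosomes, stood at 6.49 and 4.80 TPM against 0.02 to 5.01 TPM (median 1.41), a change of -1.47 ± 0.58 (limma adjusted p = 0.226). Cdk1 stood at 59.98 and 71.8 TPM at P12, Ube2c at 35.4 and 47.3 TPM, and both were lower in all 3W libraries. Birc5 stood at 32.9 and 58.7 TPM, Ccnb1 at 13.6 and 27.2 TPM, Rrm2 at 23.8 and 29.6 TPM and Stmn1 at 170.3 and 235 TPM, and only the higher P12 library of Birc5 and of Stmn1 lay above all 3W libraries. E2f1 stood at 10.4 and 4.22 TPM and Pcna at 103 and 165 TPM. Kif23 had the lowest change of all members (-2.40 ± 0.80, limma adjusted p = 0.138) and Aurka, a spindle pole kinase, the highest (0.97 ± 0.87), with P12 libraries at 0.05 and 8.2 TPM.

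In other groups Mcm3 stood at 8.45 to 18.2 TPM in WT 1W HFD, 12.1 to 31.3 TPM in WT 12W HFD, 10.2 and 10.98 TPM at 6M, 7.77 to 32.4 TPM in KO 3W, 7.95 and 47.5 TPM in KO 1W HFD and 13.8 and 15.3 TPM in KO 12W HFD. Mcm4 stood at 11.2 to 30.8 TPM in KO 3W and 11.8 and 36.2 TPM in KO 1W HFD, and elsewhere after P12 at 11.3 to 24.4 TPM. Without P12 replicate 1 or 2 the change of Mcm3 was -2.07 or -2.06 (limma adjusted p = 0.153 or 0.114) and that of Mcm4 -1.55 or -1.09 (limma adjusted p = 0.106 or 0.261), close to the values with all libraries but past the threshold in neither. These fits take the spread of the single P12 library left from the remaining groups. Mcm4 also missed the threshold without WT 3W replicate 1, 4, 5 or 6 and Mcm3 without replicate 5 (limma adjusted p = 0.0525 to 0.0757), with changes of -1.34 to -1.23 and -1.97. The 12 endothelial markers summed to 694 and 330 TPM at P12 against 47.2 to 94.1 TPM at 3W, with 8 of 12 above all 3W libraries in both and 0 of 12 at 0. The 7 erythroid markers summed to 13.3 and 880 TPM against 1117 to 9489 TPM, with 4 of 7 below all 3W libraries. Their part in these changes was not tested.

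**Figure D4:**
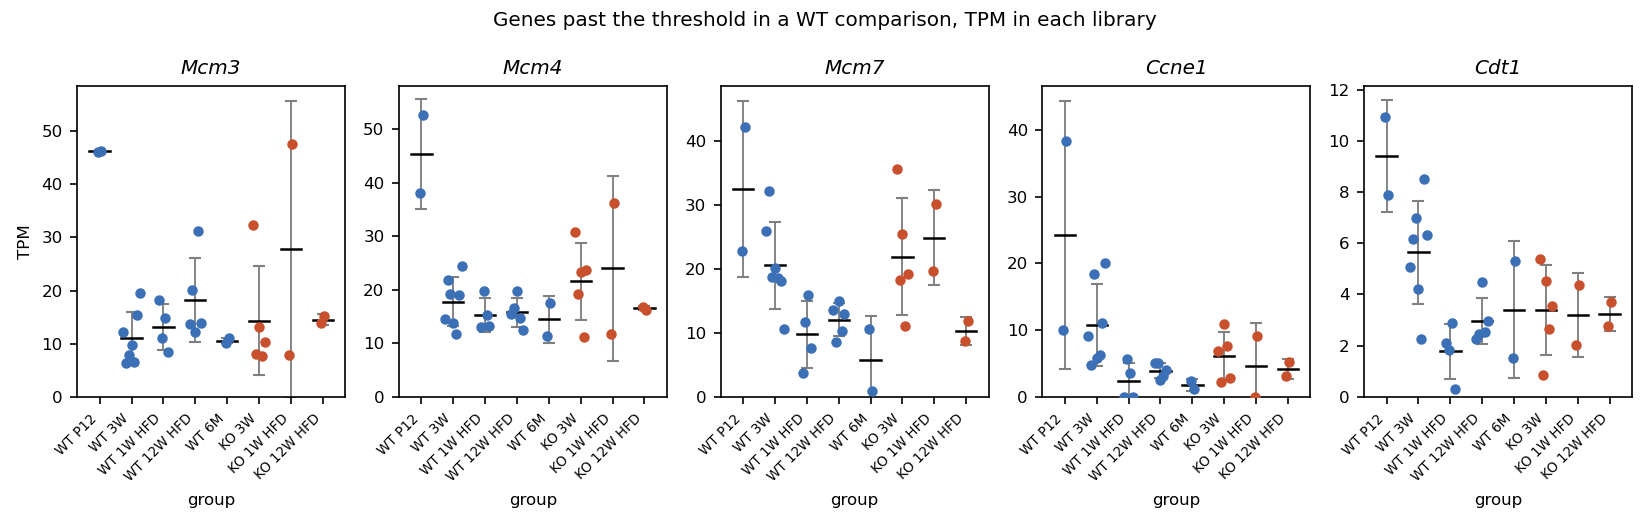
TPM in each library for the 5 members past the threshold in a WT comparison (blue WT, red KO); the black line is the group mean and the grey bar its SD. By group mean Mcm3 and Mcm4 are highest at P12, where the points lie at 38.0 TPM or above; the highest single Mcm3 point is KO 1W HFD replicate 2 (47.5 TPM), and Mcm7 has a single low point at 6M.

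From 3W to 6M in WT cells Mcm7 fell, and the call rests on 1 library. Mcm7 (chromosome 5, 138164583 to 138172422) stood at 10.6 and 0.93 TPM at 6M and at 10.6 to 32.2 TPM (median 18.7) at 3W. WT 6M replicate 1 lay level with the lowest 3W library (10.59 against 10.61 TPM) and replicate 2 far below it. In replicate 2, 11270 genes reached 1 TPM, against 11963 in replicate 1 and 10894 to 12825 in the 3W libraries. The part of detection in the 6M values was not tested. Mcm7 fell by 2.13 ± 0.50 (limma adjusted p = 0.00574). It was the 1 member of 48 called lower, against 6.85% of all tested genes, a share below the background. Without WT 6M replicate 2, the library at 0.93 TPM, the change was -0.83 (limma adjusted p = 0.507), a fit that takes the spread of the single 6M library left from the remaining groups. The 15 macrophage markers summed to 1383 and 3889 TPM at 6M against 63.0 to 146 TPM at 3W, with 13 of 15 above all 3W libraries and none at 0. The pericyte markers (22.1 and 45.1 TPM against 47.6 to 578 TPM), the Schwann and glial markers (2.93 and 7.65 TPM against 29.1 to 92.0 TPM, Sox10 at 0) and the lymphocyte markers (27.7 and 136 TPM against 2.08 to 13.5 TPM) did not overlap either, and the part of these lists in the change was not tested.

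The rest of the module was low at 6M without calls. Of the 48 members 39 had their lowest group mean at 6M, and 38 had a negative change from 3W, with a median of -0.52 against -0.24 over all tested genes. Median-ratio scaling moved these medians to -0.33 and -0.03. The 6M group lay wholly below the 3W group for 3 members (Mcm7 and the cyclins Ccne1 and Ccne2), 6.25% against 11.9% of tested genes. Cyclin E1, Ccne1, which drives entry into S phase with Cdk2, stood at 2.35 and 1.15 TPM at 6M against 4.80 to 20.1 TPM (median 9.05), a change of -1.97 ± 0.73 (limma adjusted p = 0.0808). Mki67 stood at 0.93 and 0.42 TPM, Cdk1 at 8.88 and 9.13 TPM and Rrm2 at 8.96 and 6.37 TPM. Ube2c stood at 12.1 and 9.86 TPM, Birc5 at 10.4 and 12.3 TPM and Ccnb1 at 5.57 and 10.2 TPM. All 6M values of these 6 genes lay inside the 3W range. Stmn1 stood at 57.5 and 58.3 TPM, Mcm5 at 4.73 and 1.82 TPM, Pcna at 51.8 and 71.0 TPM and E2f1 at 10.4 and 7.48 TPM. Age and, for the HFD groups below, diet differ together between these groups and cannot be told apart.

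After 1 week of HFD, Ccne1 and Cdt1 were lower than at 3W in WT cells. Ccne1 (chromosome 7, 38097984 to 38107534) stood at 0.04, 5.67, 3.58 and 0 TPM in WT 1W HFD, and only replicate 2 reached the 3W range of 4.80 to 20.1 TPM. Cdt1, the factor that loads the MCM helicase onto origins (chromosome 8, 122568015 to 122573554), stood at 2.12, 1.81, 2.88 and 0.32 TPM against 2.26 to 8.49 TPM (median 6.17). 1 of those 4 libraries lay within the 3W range. Ccne1 fell by 2.15 ± 0.57 (limma adjusted p = 0.0191) and Cdt1 by 1.29 ± 0.37 (limma adjusted p = 0.0297). They were 2 of 48 members called lower, against 3.25% of all tested genes, a share near the background. The macrophage markers summed to 319 to 475 TPM in WT 1W HFD against 63.0 to 146 TPM at 3W, with 9 of 15 above all 3W libraries, and the endothelial markers to 170.1 to 506 TPM against 47.2 to 94.1 TPM, with 4 of 12 above. The 6 Schwann and glial markers summed to 9.89 to 18.4 TPM against 29.1 to 92.0 TPM, with 1 of 6 below all 3W libraries and Sox10 at 0. The part of these lists in the changes was not tested.

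Both calls were lost in some fits without 1 library, while the changes moved by less than 1.5 times. Without WT 1W HFD replicate 4 the change was -1.73 for Ccne1 (limma adjusted p = 0.109) and -0.97 for Cdt1 (limma adjusted p = 0.167), and without replicate 1 it was -1.75 for Ccne1 (limma adjusted p = 0.0885). Cdt1 also missed the threshold without WT 1W HFD replicate 2 or WT 3W replicate 3 or 6, with changes of -1.33, -1.24 and -1.20 (limma adjusted p = 0.0548, 0.0518 and 0.0572). The median change over the 48 members was -0.11 against 0.02 over all tested genes, with 17 positive and 31 negative. Plk1, a mitotic kinase, was the highest (0.94 ± 0.73, limma adjusted p = 0.499).

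After 12 weeks of HFD no member differed from 3W by the test. Of 48 members 24 were positive and 24 negative, the median change was -0.00, and 0 were called (limma), against 14.2% of all tested genes; 1 member had an unadjusted p under 0.05. Between 12 and 1 weeks of HFD 0 members were called against 5.93% of tested genes, with 1 at an unadjusted p under 0.05 and a median of 0.16. Against 6M cells 0 members were called against 0.881%, with 4 at an unadjusted p under 0.05 (limma). The 12W HFD cells lay higher than 6M cells in 41 of 48 members, with a median of 0.54 against 0.22 over all tested genes (0.38 and 0.05 after median-ratio scaling). For 11 members, Top2a, Mki67, Tk1 and Rrm1 among them, all 12W HFD libraries lay above both 6M libraries, 22.9% of the module against 16.5% of tested genes. Top2a stood at 17.0, 9.37, 9.44, 14 and 6.31 TPM against 2.79 and 5.31 TPM.

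In KO cells at 3W no member was called. The count was 0 of 48, as over all 15659 genes (0%), by limma, and 1 member, Mki67, had an unadjusted p under 0.05 beside 546 of all tested genes. Of the members 40 were positive, with a median change of 0.37 against 0.01 over all genes. Without KO 3W replicate 1 and KO 1W HFD replicate 2, an alternative chosen after seeing the data, 25 were positive and 23 negative with a median of 0.03.

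Single genes show how the KO 3W group was made up. Mki67 stood at 11.9, 1.92, 1.38, 2.77 and 5.45 TPM in KO 3W and at 0.02 to 5.01 TPM in WT 3W. Top2a stood at 85.3, 2.91, 9.42, 11.4 and 22.9 TPM, against 2.93 to 51.9 TPM. Cdk1 stood at 129, 11.9, 13.6, 34.0 and 66.7 TPM, against 4.98 to 54.1 TPM (median 18.6). In all 3 genes KO replicate 1 lay above every WT 3W library, KO replicate 5 did so for Mki67 and Cdk1, and the other KO libraries lay inside the WT range or, for Top2a in replicate 2, at its lower edge. The changes were 0.97 ± 0.42 for Mki67, 0.62 ± 0.65 for Top2a and 0.57 ± 0.70 for Cdk1 (limma adjusted p = 1 for each).

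Genes of mitotic exit and of the spindle had the same shape. Ube2c stood at 115, 4.14, 15.5, 14.8 and 14.6 TPM in KO 3W against 4.16 to 35.3 TPM (median 11.6) in WT 3W. Birc5, which codes for survivin of the chromosomal passenger complex, stood at 111, 5.36, 9.81, 22.6 and 46.9 TPM, against 0.60 to 42.5 TPM (median 9.0). Stmn1 stood at 366, 78.9, 81.0, 102 and 129 TPM, against 46.2 to 180 TPM (median 71.6). KO replicate 1 was the highest library in all 3, by a wide margin. Ccnb1, cyclin B1, stood at 73.8, 6.19, 13.0, 15.9 and 34.8 TPM, against 5.44 to 38.0 TPM (median 9.02). Changes of these 4 genes were 0.41 ± 0.59, 1.15 ± 0.70, 0.68 ± 0.39 and 0.70 ± 0.64 (limma adjusted p = 1 for each).

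Levels of replication genes at 3W were as follows. Rrm2, the regulated subunit of ribonucleotide reductase, stood at 56.6, 11.2, 15.8, 7.14 and 22.5 TPM in KO 3W against 3.24 to 32.4 TPM (median 15.7) in WT 3W. Mcm5 stood at 24.4, 4.06, 9.60, 1.93 and 3.94 TPM, against 0.22 to 12.8 TPM. Pcna stood at 135, 97.9, 79.7, 75.2 and 72.9 TPM, against 65.6 to 107 TPM (median 80.3). Only KO replicate 1 left the WT range in these genes. E2f1, the transcription factor of S phase genes, stood at 9.07, 3.59, 7.64, 11.3 and 8.73 TPM, against 3.96 to 11.7 TPM (median 7.36), and KO replicate 1 was not its highest library. Ccne1, the member with the lowest change (-0.75 ± 0.54), stood at 6.84, 2.16, 10.8, 7.65 and 2.81 TPM, and Cenpa, the highest (1.28 ± 0.66), at 72.4, 20.7, 18.4, 24.4 and 72.0 TPM against 0 to 49.0 TPM (median 16.4; limma adjusted p = 1 for both).

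The titles pair KO and WT libraries at 3W without saying what a pair shares. In pair 1 the module stood at 5.05 in KO and 2.35 in WT, with 47 of 48 members higher in KO. In pair 2 it stood at 2.40 and 2.75, with 18 of 48 higher in KO. In pair 3, which has 1 KO and 2 WT libraries, it stood at 3.08 in KO and at 2.89 and 3.07 in WT, with 31 and 26 higher in KO. In pairs 4 and 5 KO stood lower, 3.07 against 3.71 and 3.85 against 4.35, with 4 and 10 of 48 members higher in KO. KO thus stood above WT by more than 0.2 log2 units in pair 1 alone.

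**Figure D5:**
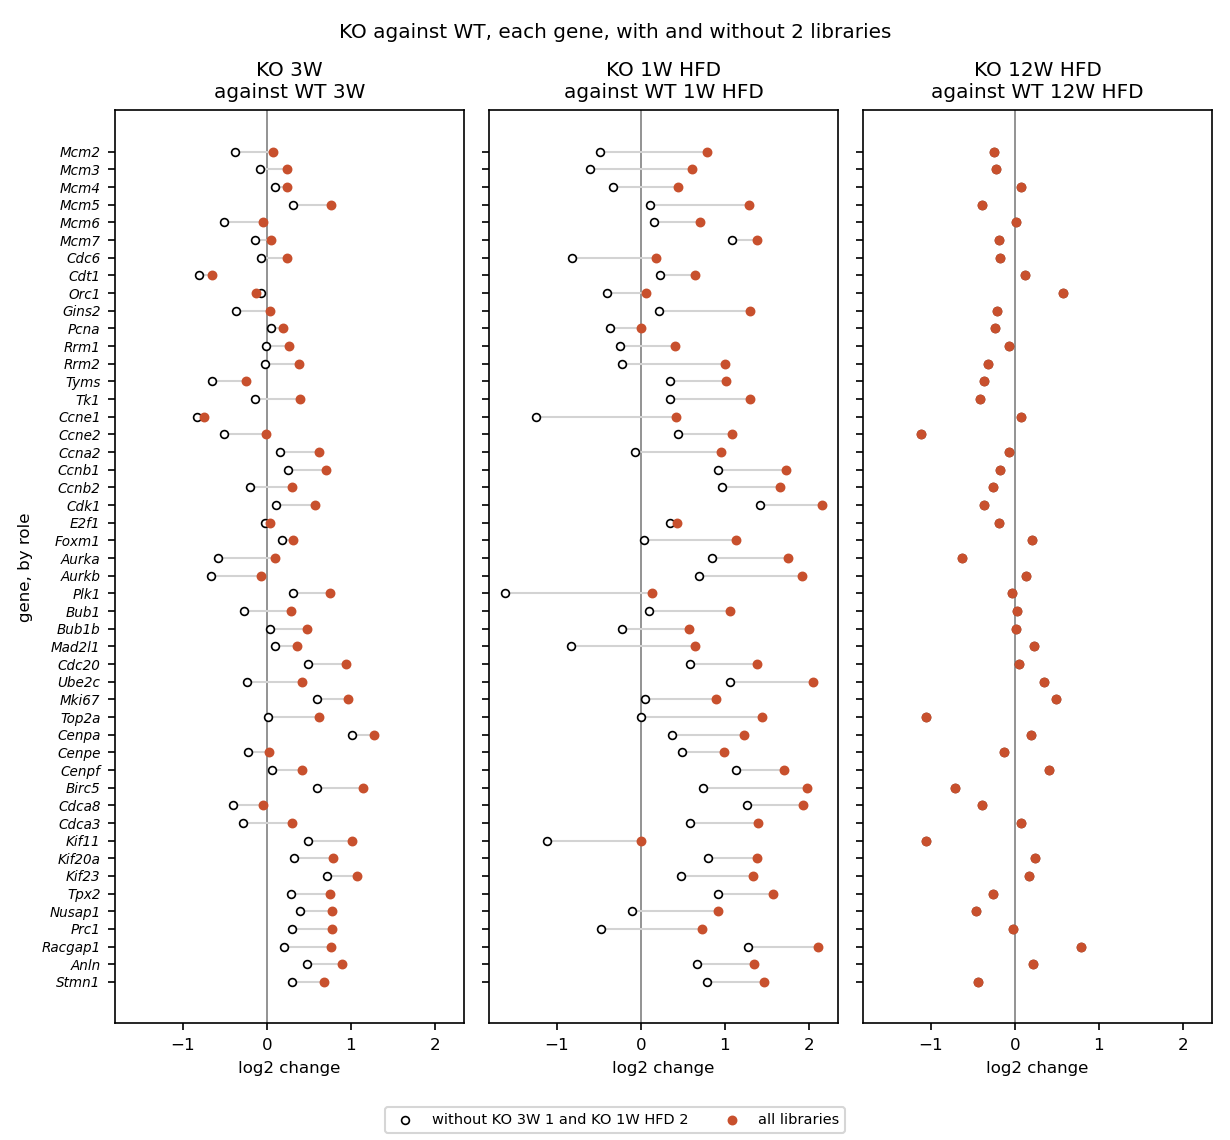
log2 change of each of the 48 genes, KO against WT, at 3W, 1W HFD and 12W HFD (red points, all libraries) and without KO 3W replicate 1 and KO 1W HFD replicate 2 (open points). The median moves from 0.37 to 0.03 at 3W and from 1.11 to 0.29 at 1W HFD; at 12W HFD, where no library was left out, the points coincide.

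After 1 week of HFD nearly all members stood higher in KO, and none was called. The count was 0 of 48 against 0.0255% of all tested genes (4 genes, limma), with 8 members at an unadjusted p under 0.05 beside 540 of all genes. Of the members 47 were positive, with a median change of 1.11 against 0.00 over all tested genes. It was 1.38 over the 25 mitosis genes and 0.70 over the 15 replication genes. Without KO 1W HFD replicate 2 and KO 3W replicate 1 the median was 0.29, with 31 positive and 17 negative. The macrophage markers summed to 571 and 895 TPM in the KO libraries, both above the 319 to 475 TPM of the WT ones, with 4 of 15 markers higher in both KO libraries than in all WT libraries and none at 0, and their part in the result was not tested.

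The 2 KO libraries at 1W HFD were far apart. Cdk1, the highest change (2.16 ± 1.03), stood at 27.1 and 76.9 TPM in the KO libraries, and the WT ones at 22.9, 31.8, 14.3 and 0 TPM. Ube2c stood at 23.7 and 96.2 TPM, against 13.3, 16.2, 28.1 and 1.72 TPM. Racgap1, which activates the midzone with Kif23, stood at 13.0 and 43.4 TPM, against 5.13, 7.58, 9.82 and 0.95 TPM. The first KO library lay inside the WT range for Cdk1 and Ube2c and above it for Racgap1. Changes of Ube2c and Racgap1 were 2.05 ± 0.87 and 2.11 ± 0.91 (limma adjusted p = 1 for all 3).

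Other mitosis and replication genes gave these levels at 1W HFD. Mki67 stood at 3.16 and 12.4 TPM in the KO libraries, and the WT ones at 1.57, 2.55, 5.97 and 3.14 TPM. Top2a stood at 6.83 and 57.1 TPM, against 6.91, 9.72, 12.8 and 2.25 TPM. Stmn1 stood at 100.2 and 262 TPM, against 45.1, 79.3, 128 and 24.0 TPM. In each of these KO replicate 1 fell inside the WT range and KO replicate 2 above it. Birc5 stood at 17.4 and 101 TPM, against 14.8, 14.1, 24.1 and 1.44 TPM. Ccnb1 stood at 14.9 and 48.5 TPM, against 8.95, 16.9, 25.1 and 0.09 TPM. Rrm2 stood at 8.99 and 54.3 TPM, against 10.1, 14.4, 14 and 6.41 TPM. These 3 genes repeat that order. Mcm5 stood at 3.65 and 22.7 TPM, against 5.04, 1.93, 1.99 and 5.51 TPM, and Pcna at 57.1 and 95.1 TPM, against 93.5, 69.7, 52.1 and 86.7 TPM, a change of 0.00 ± 0.28. Kif11, the motor that pushes spindle poles apart, had the lowest change (-0.00 ± 0.95), with 1.44 and 10.4 TPM against 8.14, 4.47, 6.24 and 1.16 TPM.

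In 8 members both KO libraries lay above all 4 WT libraries at 1W HFD, 16.7% of the module against 5.97% of tested genes. They were Racgap1, Kif23, Cenpe, Cdca8, Ccne2, E2f1, Tyms and Mcm7. Mcm7 stood at 19.6 and 30.1 TPM against 3.73, 11.7, 16 and 7.68 TPM, a change of 1.38 ± 0.54 (limma adjusted p = 1). E2f1 stood at 8.03 and 9.20 TPM against 4.46, 7.35, 6.35 and 6.58 TPM, a change of 0.43 ± 0.41.

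After 12 weeks of HFD KO and WT libraries overlapped in most members. The count called was 0 of 48 against 0.00639% of all tested genes (1 gene, limma), with 0 members at an unadjusted p under 0.05 beside 570 of all genes. Of the members 20 were positive and 28 negative, with a median of -0.10. Mki67 stood at 2.41 and 3.07 TPM in the KO libraries, and the WT ones at 1.25, 1.53, 1.92, 2.42 and 1.28 TPM. Top2a stood at 1.57 and 11.2 TPM against the WT values given above, and Cdk1 at 5.66 and 32.2 TPM against 26.7, 8.49, 31.3, 22.3 and 12.2 TPM. Both genes had a KO library below all WT ones, and for Cdk1 the other KO library lay above all WT ones. Birc5 stood at 8.56 and 17.6 TPM in the KO libraries, and the WT ones at 29.3, 21.3, 21.7, 26.7 and 10.9 TPM. Stmn1 stood at 39.9 and 80.5 TPM, against 87.0, 72.7, 76.2, 112 and 50.5 TPM. Ube2c stood at 10.8 and 18.4 TPM, against 13.4, 4.77, 15.9, 13.4 and 10.5 TPM. KO replicate 1 was the lower KO library in Mki67 and in all of these genes. KO replicate 2 lay above all WT libraries in Mki67 and Ube2c and inside the WT range in Top2a, Birc5 and Stmn1. Ccnb1 stood at 4.63 and 12.4 TPM, against 19.4, 6.62, 9.33, 9.14 and 4.79 TPM. Rrm2 stood at 9.70 and 11.8 TPM, against 21.9, 13.2, 13.1, 18.9 and 6.46 TPM. Mcm5 stood at 2.92 and 7.50 TPM, against 9.49, 7.38, 4.90, 8.78 and 3.96 TPM. The groups overlapped in these 3 genes. Pcna stood at 77.2 and 70.0 TPM, inside or just below the WT span of 70.4 to 116 TPM, and E2f1 at 5.57 and 9.63 TPM, against 6.98 to 10.2 TPM. Ccne1 stood at 3.15 and 5.22 TPM, against 5.14, 5.00, 2.47, 3.14 and 3.95 TPM. Kif11 stood at 0 and 2.17 TPM, against 4.58, 0.48, 4.14, 6.06 and 1.34 TPM, and Cenpa at 11.1 and 31.3 TPM, against 12.2 to 21.7 TPM. Racgap1 had the highest change (0.79 ± 0.87) and Ccne2, cyclin E2, the lowest (-1.12 ± 0.59), with 1.52 and 1.89 TPM in the KO libraries, below all of 8.57, 5.65, 3.00, 4.08 and 4.34 TPM in WT (limma adjusted p = 1 for both).

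The KO minus WT differences were compared between ages and diets directly. For 1W HFD minus 3W the median over members was 0.76 and 41 were positive, 0 called against 0.00639% of tested genes and 4 at an unadjusted p under 0.05. For 12W HFD minus 1W HFD it was -1.15 and 47 were negative, 0 called against 0.0128% and 5 at an unadjusted p under 0.05. For 12W HFD minus 3W it was -0.47, 0 called against 0% and 0 at an unadjusted p under 0.05 (all limma). These differences share libraries with each other and with the comparisons above. Without KO 3W replicate 1 and KO 1W HFD replicate 2 the medians were 0.17, -0.44 and -0.09.

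Among KO groups the module was highest at 1W HFD, by its mean. From KO 3W to KO 1W HFD 44 members were positive (median 0.51), with 0 called against 0.862% of tested genes and 0 at an unadjusted p under 0.05. From KO 1W HFD to KO 12W HFD 45 were negative (median -1.13), with 0 called against 0.760% and 2 at an unadjusted p under 0.05. For 19 members both 12W HFD libraries lay below both 1W HFD libraries, 39.6% of the module against 22.5% of tested genes. From KO 3W to KO 12W HFD 40 were negative (median -0.52), with 0 called against 5.15% and 1 at an unadjusted p under 0.05 (all limma). Without the 2 high libraries the 3 medians were 0.07, -0.35 and -0.17.

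The remaining members are given by role, with group medians in TPM. In origin licensing and initiation, Mcm2 and Mcm6, helicase subunits, had their highest median at P12 (16.8 and 59.5) and their lowest at 6M (2.20) and in KO 3W (15.1), respectively. Cdc6, which loads the helicase with Cdt1, ran from 1.36 in WT 3W to 10.2 at P12. Gins2, of the GINS complex that activates the helicase, ran from 11.5 in WT 3W to 28.3 at P12. The 10 genes of this role had a median KO minus WT change of 0.06 at 3W, 0.67 at 1W HFD and -0.19 at 12W HFD.

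In nucleotide supply, Tyms, thymidylate synthase, ran from 28.1 in KO 3W to 67.5 at P12. Tk1, thymidine kinase, ran from 6.02 at 6M to 46.2 in KO 1W HFD, and Rrm1, the large subunit of ribonucleotide reductase, from 11.1 at 6M to 37.1 in KO 1W HFD. This role, with Pcna and Rrm2, had a median KO minus WT change of 0.26 at 3W, 1.00 at 1W HFD and -0.33 at 12W HFD. Among the cyclins, Ccna2, cyclin A2, ran from 2.45 at 6M to 16.6 in KO 1W HFD, and Ccnb2 from 10.7 at 6M to 55.0 in KO 1W HFD. The KO 1W HFD libraries lay far apart, at 18.8 and 73.7 TPM for Tk1 and 20.9 and 53.3 for Rrm1. They stood at 5.80 and 27.3 TPM for Ccna2 and 30.0 and 80.0 for Ccnb2. The median KO minus WT changes of the cyclins and cell cycle factors were 0.31, 1.11 and -0.18.

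Among kinases, checkpoint and APC/C genes the highest group median lay in KO 1W HFD for 7 of 8, Bub1 being the exception with 5.82 at P12. Aurkb, the kinase of the passenger complex, ran from 2.01 at 6M to 22.5, Plk1 from 2.43 to 16.6, and Cdc20 from 5.32 to 39.8. Bub1b ran from 1.32 to 5.87 and Mad2l1, both of the spindle checkpoint, from 4.16 to 26.4. Each KO 1W HFD median is the midpoint of 2 libraries that lie far apart. These stood at 6.29 and 38.7 TPM for Aurkb, 1.85 and 31.4 for Plk1, and 19.2 and 60.5 for Cdc20. For Bub1b they stood at 2.41 and 9.32 TPM and for Mad2l1 at 5.19 and 47.6. The medians of change of this role were 0.39, 1.23 and 0.04 at the 3 stages.

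Of the chromosome and passenger proteins, Cenpe, a kinetochore motor, ran from 0.61 at 6M to 3.77 in KO 1W HFD, and Cenpf from 1.38 in WT 12W HFD to 11.3. Cdca8, borealin, ran from 6.36 at 6M to 25.4 and Cdca3 from 5.28 in WT 12W HFD to 23.0. Of the spindle and cytokinesis genes, the midzone motor Kif20a ran from 4.11 in WT 3W to 23.4, Tpx2, an activator of Aurora A, from 3.34 at 6M to 16.8, and Nusap1 from 2.79 to 12.9. Prc1, which bundles midzone microtubules, ran from 5.16 to 35.4, and Anln, anillin of the contractile ring, from 3.92 to 19.6. All of these were highest in KO 1W HFD, whose 2 libraries lie far apart. The medians of change were 0.52, 1.42 and -0.03 for chromosome proteins and 0.78, 1.35 and -0.02 for spindle genes.

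Further genes of the same steps stand on lists chosen with earlier results of these data known. Of 49 other kinetochore, spindle and cytokinesis genes tested, 43 were negative from P12 to 3W (median -0.81), 41 positive in KO at 3W (median 0.32) and 45 positive in KO at 1W HFD (median 1.12), with 0 called in any. Knl1, a kinetochore scaffold, and Spc25, an Ndc80 complex subunit, were lowest from P12 to 3W (-2.18 and -2.04), and Cdc25c, a phosphatase that activates Cdk1, and Troap were highest (1.25 and 0.72). In KO at 1W HFD Pimreg and Spc25 were highest (1.70 and 1.67) and Pttg1, securin, and Mad1l1 lowest (-0.72 and -0.25).

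Of 40 other replication factors 36 were negative from P12 to 3W (median -0.89), and 1 of 40 was called lower, against 1.00% of all tested genes. This was Clspn, which codes for claspin of the replication checkpoint, at 12.1 and 18.5 TPM at P12 and 0.15 to 5.69 TPM (median 0.40) at 3W, without overlap, a change of -2.98 ± 0.65 (limma adjusted p = 0.0137). Chaf1b, a histone chaperone subunit, was next (-2.97), and Rfc4 and Mcm8 were highest (0.24 and 0.23). At 6M 3 of the 40 were called lower than at 3W, against 6.85% of all tested genes, a share near the background. Prim1, the primase subunit, and Orc6 were lower at 6M than at 3W (-1.79 ± 0.53, limma adjusted p = 0.0281, and -1.01 ± 0.21, limma adjusted p = 0.00255), as was Orc5 (-0.95 ± 0.31, limma adjusted p = 0.0457). Prim1 was also lower at 1W HFD, 1 of 40 against 3.25% (-1.42 ± 0.41, limma adjusted p = 0.0313). In KO at 1W HFD 32 of the 40 were positive (median 0.36), none called, with Gmnn, the inhibitor of Cdt1, and Uhrf1 highest (2.22 and 1.89) and Prim2 and Rfc3 lowest (-0.54 and -0.32).

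Of 27 G1 cyclins, G1 kinases and Rb, E2F and DREAM factors, 11 were positive in KO at 3W and 9 in KO at 1W HFD, with medians of -0.05 and -0.07 and 0 called. In WT cells 3 of 27 were called lower at 6M than at 3W, against 6.85% of all tested genes. At 12W HFD 2 of 27 were called in either direction, against 14.2%, a share below the background. Ccnd3, cyclin D3, was lower at 6M (-1.46 ± 0.39, limma adjusted p = 0.0147) and at 12W HFD (-1.76 ± 0.28, limma adjusted p = 4.2e-05) than at 3W. It stood at 63.6 and 92.4 TPM at 6M and at 40.5 to 96.7 TPM at 12W HFD, against 109 to 373 TPM (median 263) at 3W, with no overlap. The macrophage markers summed to 2643 to 5351 TPM in WT 12W HFD against 63.0 to 146 TPM at 3W, and their part in these changes was not tested. At 6M Cdk2 (-1.05 ± 0.29, limma adjusted p = 0.0188) and Rbl2 (-0.97 ± 0.32, limma adjusted p = 0.0498) were lower too.

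Of 7 tested Cdk inhibitors 1 was called lower at 1W HFD than at 3W in WT cells (3.25% of all tested genes), 2 were called in either direction at 12W HFD (14.2%) and 1 lower at 6M (6.85%). Cdkn1c, which codes for p57, was lower at 1W HFD (-1.47 ± 0.28, limma adjusted p = 0.00161) and at 12W HFD (-1.46 ± 0.26, limma adjusted p = 0.000169) than at 3W in WT cells. It stood at 101 to 145 TPM at 1W HFD and 89.99 to 209 TPM at 12W HFD, against 214 to 555 TPM (median 368) at 3W, with no overlap. Cell type markers differed between these groups too, and their part in the changes of Cdkn1c was not tested. Cdkn1a, p21, was lower at 6M than at 3W (-1.54 ± 0.38, limma adjusted p = 0.00916). In KO against WT no inhibitor was called at any stage, and Cdkn3, a phosphatase that peaks in mitosis, had the highest change at 3W and 1W HFD (0.50 and 1.82).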

How the data were processed

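RNA was measured in 29 libraries and chromatin accessibility in 9. RNA values are TPM as deposited by the authors in a WT and a KO table. Tools listed in the submitters' processing notes are FastQC, Trim Galore 0.6, Bowtie2 2.3, MACS2, RSEM and STAR 2.5.3a, with build mm10; the role of each is not stated. The ATAC peak lists, called library by library, hold a peak score, a fold enrichment and −log10 p and q values as the authors deposited them. Of these only the −log10 q was used, as a filter in an alternative.

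The members and all gene lists were chosen with earlier results of these data known. A gene entered the test when 2 or more libraries reached 1 TPM, and was fitted with limma 3.58.1 (R 4.3.3; trended empirical Bayes, two-sided) on log2(TPM + 1), with a mean for each of 8 groups and 21 residual degrees of freedom. P-values were adjusted by Benjamini-Hochberg over all 15659 tested genes, with a threshold of 0.05. Fold changes on this scale understate those of low genes. The fit was tested on simulated data. Tables were handled in Python 3.11.15 with pandas 2.3.3 and numpy 2.4.6. The text names members called in a comparison, the members with the highest and lowest change, a set of 12 members of all roles, the 2 furthest genes each way of other lists, and the 10 genes most like the module. Promoter windows are from RefSeq (GRCm38.p6). TPM keeps no read depth, so the precision of single values is unknown. Alternatives were other pseudocounts, scalings, filters and weights, the compared groups alone, a replicate block, and each library left out. The levels of some single marker genes are not reported here.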

Additional observations from a re-analysis of the deposited data

Results flagged for a closer look

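Single libraries stood far from the rest of their group in 8 of 84 pairs of value and group looked at, by Dixon's ratio at its 95% limit. The genes vary together and some were picked for their changes in these data, so the count has no chance rate to be set beside. In 6 of them the library was KO 3W replicate 1. There Top2a stood at 85.3 TPM (next highest library of the group 22.9), Ube2c at 115 TPM (15.5) and Stmn1 at 366 TPM (129). In the same library Mcm3 stood at 32.4 TPM (13.2), Racgap1 at 47.5 TPM (14.5) and Ccne2 at 21.7 TPM (5.09). The other pairs were in WT 3W replicate 7, with Top2a at 51.9 TPM (16.5) and Kif11 at 14.6 TPM (3.72).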

How the results depend on the processing

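Of the 2 members lower at 3W than at P12, 1 was called with a pseudocount of 0.1, 1 with median-ratio scaling, 0 with array weights and 0 with the compared groups alone. Leaving out each library gave 0 to 3. For 6M against 3W the compared groups alone gave 0, and leaving out each library 0 to 2. For 1W HFD against 3W the compared groups alone gave 0, and leaving out each library 0 to 2. For 12W HFD against 6M leaving out each library gave 0 to 2, the 2 without WT 6M replicate 1. A replicate block by replicate number, which differs from the pair number for WT 3W replicates 5 to 7, gave 1 for P12 against 3W and 0 for 1W HFD against 3W, and changed no other count of members called. A block by the pair numbers of the titles at 3W left 0 members called in KO against WT at 3W, with a median change of 0.20 (37 positive, 11 negative) against 0.37 without it and 0.74 with the replicate numbers. Over all tested genes same-pair libraries correlated at 0.21, 0.48, 0.18, -0.13, 0.21 and 0.22 in their deviations from the group means, and different-pair ones at up to 0.15. All 5 KO libraries and 5 of 6 WT libraries with a pair number correlated best within their own pair, the exception being WT 3W replicate 5. That is a hint from the data, not the design: the titles do not say what a pair shares. Over the 48 members alone KO 3W replicates 2 and 5 correlated best within their pair, and replicates 1, 3 and 4 did not. There KO 3W replicate 1 correlated at -0.17 with WT 3W replicate 1, its pair, and at 0.62 with WT 3W replicate 7. Kif11 in KO at 1W HFD (-0.00) was 0.048 with a pseudocount of 5, 0.0053 with median-ratio scaling and 0.13 with array weights, and -1.12 to 1.11 with each library left out. The range of the module's level over libraries, 3.00, was 3.72 with a pseudocount of 0.1. The cause of these shifts was not tested. Counts of members called in the other comparisons stayed at 0 under all alternatives run.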
